A study of Homo sapiens with 9 samples.

Results

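RNA polymerase II and the factors that bring it to promoters were followed after TRMT12 was silenced in SKbr3 cells. The members are all array probes whose gene symbol in the platform annotation starts with POLR2, GTF2, TAF and a number, or MED and a digit. MED1 was left out by the rule, and so was any probe with several symbols. This gave 68 genes, of 15178 with a single symbol on the array, read by 95 of its 35328 probes: 13 POLR2 probes for 10 genes, 15 GTF2 probes for 12, 34 TAF probes for 22 and 33 MED probes for 24. The rule reads names and no measured value, and it was proposed with earlier results of these data known.

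SKbr3 is an established human breast cancer line with an amplified ERBB2 gene. The cells received TRMT12 siRNA-1, siRNA-2 or siRNA-3, or a control siRNA. TRMT12 encodes an enzyme in the synthesis of wybutosine, a modified base of phenylalanine transfer RNA. Each TRMT12 siRNA was set against control siRNA on 3 two-colour arrays, 9 arrays in all, with the knockdown RNA in Cy5 on arrays 1 and 2 and in Cy3 on array 3, the dye swap. The labels give no dose and no time after transfection, and nothing tells whether a siRNA's arrays hold RNA of different cultures. The p-values below therefore cover the variation among hybridisations alone, and that variation may be technical. The design text speaks of the same control siRNA throughout while the labels number the controls, so the siRNAs may share control RNA. Counts of probes called with each siRNA are therefore a description of these arrays, and the siRNAs are not taken as independent repeats. The test of 1 value per siRNA treats those values as independent, which they are not if control RNA is shared.

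RNA polymerase II makes the messenger RNA of protein-coding genes. Its POLR2 subunits form the enzyme, and some of them also belong to RNA polymerases I and III. TFIID, which holds the TATA-binding protein and the TAF subunits, binds the core promoter, and the factors encoded by GTF2 genes hold the polymerase there and open the DNA. Mediator, built of MED subunits in a head, a middle, a tail and a detachable kinase module, connects activators to the polymerase. Some of these symbols cover genes with other roles, such as TAF1A to TAF1D, which form SL1, the promoter factor of RNA polymerase I.

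The 250 bases before the annotated start are printed for 4 genes. MED18 and TAF1D had the highest means of all members, and MED24 and POLR2E are among the 4 genes called lower with each siRNA. The sequences are RefSeq's, assembly GRCh38.p14, read 5′ to 3′ on the strand of the gene: MED18 at chr1:28328790-28329039 on the plus strand, and on the minus strand TAF1D at chr11:93741496-93741745, MED24 at chr17:40054409-40054658 and POLR2E at chr19:1095376-1095625. Capitals mark matches on either strand to 6 motifs. The TATA box was searched as TATAAA and the GC box as GGGCGG. The CCAAT box was searched by those letters, and the ETS site as CCGGAAG. The cyclic AMP response element was searched as TGACGTCA, and the NRF1 site by its consensus with 1 open base. No matches of different motifs overlap in these 4 stretches.
MED18: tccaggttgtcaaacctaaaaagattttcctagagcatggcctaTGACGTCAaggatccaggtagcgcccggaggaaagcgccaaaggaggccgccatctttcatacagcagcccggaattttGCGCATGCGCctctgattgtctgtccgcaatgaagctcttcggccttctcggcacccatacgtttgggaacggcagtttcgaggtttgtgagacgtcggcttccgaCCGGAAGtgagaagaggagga
TAF1D: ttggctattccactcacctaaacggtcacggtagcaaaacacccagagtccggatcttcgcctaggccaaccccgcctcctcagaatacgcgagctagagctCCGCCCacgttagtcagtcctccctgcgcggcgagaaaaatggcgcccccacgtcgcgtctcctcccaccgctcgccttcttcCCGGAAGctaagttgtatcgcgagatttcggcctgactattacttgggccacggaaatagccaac
MED24: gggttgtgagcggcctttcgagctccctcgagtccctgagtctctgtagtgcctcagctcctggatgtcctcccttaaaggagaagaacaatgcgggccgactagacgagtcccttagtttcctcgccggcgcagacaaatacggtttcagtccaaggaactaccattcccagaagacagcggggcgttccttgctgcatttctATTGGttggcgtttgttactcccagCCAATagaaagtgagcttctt
POLR2E: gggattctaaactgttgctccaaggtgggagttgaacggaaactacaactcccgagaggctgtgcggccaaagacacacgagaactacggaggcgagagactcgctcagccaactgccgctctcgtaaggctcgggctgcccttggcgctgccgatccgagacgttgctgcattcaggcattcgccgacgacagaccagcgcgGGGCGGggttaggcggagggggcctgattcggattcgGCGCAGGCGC

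The MED18 stretch held 1 ETS site, 1 NRF1 site and 1 cyclic AMP response element, and that of TAF1D held 1 GC box and 1 ETS site. The MED24 stretch held 2 CCAAT matches, and that of POLR2E held 1 GC box and 1 NRF1 site. Such stretches were matched for 51 of the 66 tested member genes, and a gene counted where any of its starts held the motif. The ETS site was in 16 of the 51 (31.4%), against 10.2% of 27305 genes, and the NRF1 site in 12 (23.5%), against 6.2%. The 27305 are all genes with such a stretch, on the array or not, so they are not matched to the members. What part that has in the shares was not tested. The GC box was in 31 (60.8%), against 46.2%, CCAAT in 18 (35.3%), against 37.0%, the TATA box in 4 (7.84%), against 13.0%, and the cyclic AMP response element in 3 (5.88%), against 2.03%. Of the 6 matched genes called higher with each siRNA, 4 held the ETS site, 3 the NRF1 site and 3 the GC box. The CCAAT box, the TATA box and the cyclic AMP response element were each in 1 of the 6. Of the 2 matched genes called lower with each siRNA, 1 held the NRF1 site, 1 the GC box and 1 the CCAAT box. The ETS site, the TATA box and the cyclic AMP response element were in 0 of the 2. So few genes allow no comparison of the groups. These genes were picked by their calls, and a link between sites and ratios was not tested. These are matches of letters, and use of the sites was not measured.

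Values below are log2 ratios of knockdown over control, normalised within each array, unless named otherwise, so a positive value means more RNA in the knockdown. In such bulk RNA, fewer cells making a transcript and less of it per cell cannot be told apart. The estimate for a siRNA comes from 1 limma fit over the 9 arrays that gives each siRNA its mean and includes a term for dye. A probe is called when its p, adjusted by Benjamini and Hochberg over all 28259 tested probes, is under 0.05. The mean over the siRNAs takes 1 dye-balanced value from each. Of the 95 member probes, 89 for 66 genes were tested, 5 were not detected and 1 was detected without a ratio in both dye orientations. MED14, the backbone of Mediator, and TAF7L had no tested probe. A probe is named dim where its mean log2 intensity is below 8.64, the median of all tested probes, which held for 23 of the 89.

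TRMT12 lay between -2.73 and -2.35 on the 9 arrays, with a mean over the siRNAs of -2.53 (SE 0.0733, adjusted p = 0.00999). Median signal was 242 to 499.6 in the knockdown channel and 190.7 to 532.9 in the control channel, and 2.57% to 24.4% of probes per array had no ratio. Arrays resembled each other by dye orientation: across probes, which are not independent, Pearson's r was 0.273 to 0.686 among the 6 Cy5-knockdown arrays, 0.517 to 0.617 among the 3 swaps, and -0.09 to 0.203 between the orientations. ERBB2, GRB7, KRT8, KRT18, KRT19, EPCAM, CDH1, GATA3 and FOXA1, markers of this line, were detected in both channels on all 9 arrays. So were COL1A1, COL1A2, DCN, PTPRC, CD14, KRT5, KRT14 and VIM, markers of other cells. In at least 1 channel, PDGFRB and CDH5 were detected on 9 arrays, VWF on 8, LYZ on 7 and PECAM1 on 4. Detection by this rule therefore does not tell cell types apart.

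Members moved in both directions. With siRNA 1, 23 of 89 member probes (25.8%) were called higher, where 11.6% of all tested probes were, and 14 (15.7%) lower, where 11.3% were. With siRNA 2, 16 (18.0%) were called higher, where 10.5% of all were, and 14 (15.7%) lower, where 9.74% were. With siRNA 3, 17 (19.1%) were called higher, where 9.9% of all were, and 16 (18.0%) lower, where 10.1% were. The members were brighter than most probes, with a median log2 intensity of 10.5, against 8.64 for all tested probes, and the part of brightness in these shares was not tested. The median ratio of the member probes was 0.02, 0.01 and 0.02 with siRNA 1, 2 and 3.

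The split of higher and lower calls depended on the scaling. With median centring in place of loess, 8 were called higher and 16 lower with siRNA 1, 3 and 6 with siRNA 2, and 2 and 16 with siRNA 3. With the authors' calibrated ratios the counts were 13 and 16, 5 and 10, and 6 and 21. They also moved with single arrays of the same siRNA. Without array 1, 2 or 3 of siRNA 1, 15, 11 and 7 members were called higher with that siRNA and 7, 9 and 3 lower. Without array 1, 2 or 3 of siRNA 2 the counts with siRNA 2 were 4, 10 and 5 higher and 6, 9 and 5 lower. Without array 1, 2 or 3 of siRNA 3 the counts with siRNA 3 were 6, 11 and 7 higher and 8, 7 and 4 lower, and 9 were called lower with siRNA 2 without array 1 or array 3 of siRNA 3.

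GTF2B, MED18, MED21, MED28, TAF15, TAF1B, TAF1D, TAF7 and TAF9, 9 of the 89 probes (10.1%), were called higher with each of the 3 siRNAs, where 3.23% of all tested probes were. MED22, MED24, POLR2E and POLR2I, 4 of 89 (4.49%), were called lower with each, where 2.58% were. MED18 and TAF1D stayed called higher with each siRNA whichever array was left out. Without array 1, 2 or 3 of siRNA 1, 4, 4 and 3 of the 9 stayed called higher and 2, 3 and 0 of the 4 lower. Without array 1, 2 or 3 of siRNA 2 these were 3, 6 and 3 higher and 2, 2 and 1 lower, and without those of siRNA 3 they were 3, 6 and 3 higher and 3, 3 and 2 lower. Under median centring, and likewise under the authors' ratios, MED18, TAF1D, MED22 and MED24 kept their calls with each siRNA and the other 9 probes did not. With Cy5 arrays alone MED18, TAF1D and TAF7 kept them. Of 100 calls of a member probe with a single siRNA, 23 were kept whichever array was left out, and 27 under every other alternative that gave a value. In the test of the 3 siRNA values against 0 (limma), 0 members passed the adjusted threshold, where 0.00354% of all tested probes, TRMT12 alone, did. That count was 5 with normexp background correction, 11 without low-quality spots and 12 with signal required in both channels on all arrays. The share of all tested probes under these alternatives was not counted, so 0.00354% cannot be set beside them. Without these alternatives, 29 of 89 members (32.6%) passed an unadjusted p under 0.05 in that limma test, where 23.4% of all did.

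**Figure D1:**
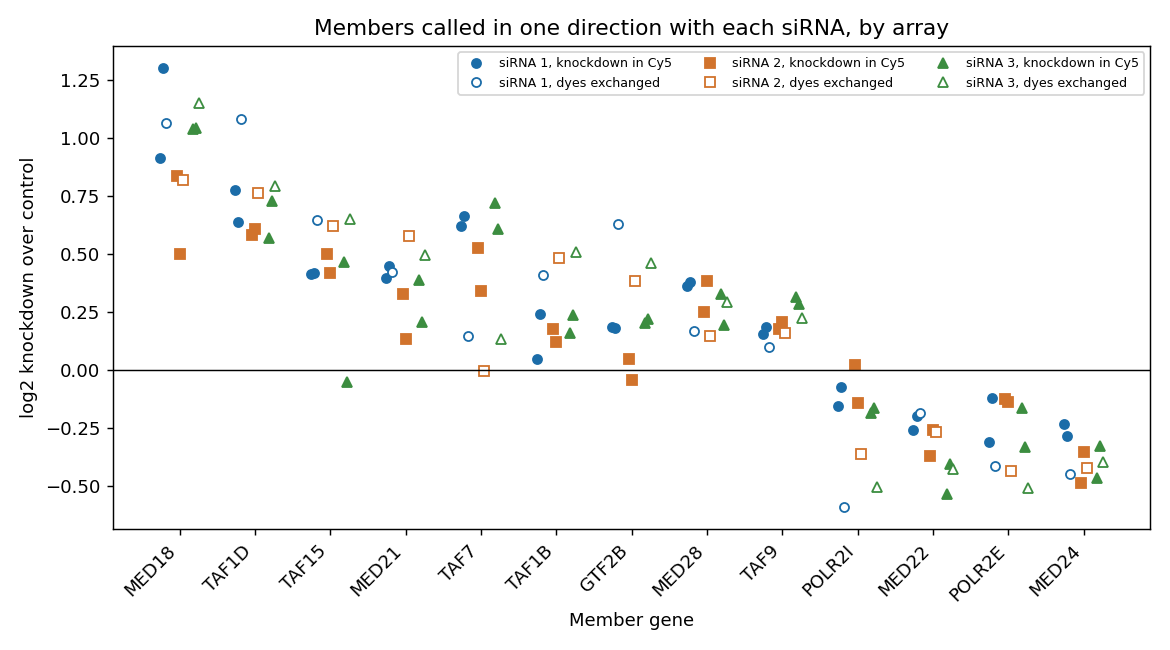
The log2 ratio of knockdown over control on each of the 9 arrays is shown for the 13 member probes called in 1 direction with each siRNA, with siRNA 1, 2 and 3 told apart by colour and dye-swapped arrays by open symbols. All points of MED18 lie between 0.50 and 1.30 and all points of TAF1D between 0.57 and 1.08. In TAF7, POLR2I and GTF2B the open symbols stand apart from the filled ones.

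Among the subunits of the polymerase, lower calls outnumbered higher ones. Of all tested probes, 11.3%, 9.74% and 10.1% were called lower with siRNA 1, 2 and 3, and 11.6%, 10.5% and 9.9% higher. With siRNA 1, 6 of 13 POLR2 probes (46.2%) were called lower and 0 higher, with siRNA 2, 4 (30.8%) and 0, and with siRNA 3, 5 (38.5%) and 2 (15.4%). With 1 array left out, 1 to 6, 1 to 4 and 0 to 6 were called lower with siRNA 1, 2 and 3, and with median centring 6, 1 and 6. Over the 10 genes, each by its brightest tested probe, the median of the means over the siRNAs was -0.07, with 8 below 0. It lay between -0.18 and -0.03 under all settings run.

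POLR2A, the catalytic subunit whose tail is phosphorylated during transcription, had -0.19, -0.33 and -0.44 with siRNA 1, -0.38, -0.32 and -0.45 with siRNA 2, and -0.08, -0.003 and -0.18 with siRNA 3. All 9 values were below 0, and those of siRNA 3 lay above all others. POLR2A fell with siRNA 1 (-0.34, SE 0.0463, limma, adjusted p = 0.00298) and siRNA 2 (-0.41, adjusted p = 0.00206), to 78.8% and 75.4% of the control level, while siRNA 3 gave -0.11 (adjusted p = 0.158). The difference of siRNA 3 from siRNA 2 was 0.30 (SE 0.0641, adjusted p = 0.0346), and it was no longer called whichever array was left out. POLR2B, the other large subunit of the active site, rose with siRNA 3 on both probes, by 0.20 on the brighter and 0.34 on the other, and was not called with siRNA 1 or siRNA 2. Without array 1 or array 2 of siRNA 3 neither of these calls remained, and without array 3 of siRNA 3 the brighter probe lost it too.

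POLR2E, a subunit of RNA polymerases I, II and III alike, had -0.31, -0.12 and -0.41 with siRNA 1, -0.12, -0.14 and -0.44 with siRNA 2, and -0.16, -0.33 and -0.51 with siRNA 3. All 9 values were below 0, and the swapped array was the lowest of each siRNA. The estimates were -0.32, -0.28 and -0.38 (SE 0.0568 each, limma, adjusted p = 0.00802, 0.0179 and 0.00545), which left 79.9%, 82.6% and 77.0% of the control level. The call with siRNA 2 was lost without any 1 array of siRNA 2, that with siRNA 1 without array 3 of siRNA 1, and that with siRNA 3 without array 3 of siRNA 3. POLR2H and POLR2K are shared between the polymerases too. POLR2K was called lower with siRNA 1 (-0.20), was 0.10 and not called with siRNA 2 and with siRNA 3, and differed between siRNA 3 and siRNA 1 by 0.30 (adjusted p = 0.0267). The POLR2K call with siRNA 1 was lost without any 1 array of siRNA 1, and the difference without any 1 array of siRNA 1 or siRNA 3 or without array 3 of siRNA 2. POLR2H was not called with any siRNA (-0.02, -0.06 and -0.13).

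POLR2I, a small subunit at the edge of the enzyme, had -0.16, -0.07 and -0.59 with siRNA 1, 0.02, -0.14 and -0.36 with siRNA 2, and -0.19, -0.16 and -0.50 with siRNA 3. It was below 0 on 8 of 9 arrays, and the swapped array was the lowest of each siRNA. The estimates were -0.33, -0.22 and -0.35 (SE 0.0536 each, limma, adjusted p = 0.00573, 0.0302 and 0.00597). The mean was -0.12 in the Cy5 orientation and -0.49 on the swaps. The calls were lost without array 3 of siRNA 1 for siRNA 1 and without array 3 of siRNA 3 for siRNA 3, and the call with siRNA 2 stayed without array 2 or array 3 of siRNA 1 only. POLR2D, part of the stalk, lay between -0.41 and -0.11 on all 9 arrays and was called lower with siRNA 1 (-0.30) and siRNA 2 (-0.21). The first of these calls was lost without array 3 of siRNA 1, and the second stayed in 3 of 9 fits with 1 array left out.

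POLR2C, an assembly subunit, was called lower with siRNA 3 (-0.17) on its brighter probe and was 0.03 and 0.04 with siRNA 1 and siRNA 2. That call was lost without any 1 array of siRNA 3. The second POLR2C probe was not called with any siRNA. The means over the siRNAs differed in sign, -0.04 on the brighter probe and 0.05 on the other. POLR2J3 has near-identical copies, so what its 2 probes read is uncertain. The brighter was called lower with siRNA 3 (-0.22, in 2 of 9 fits with 1 array left out), and the other lower with siRNA 1 (-0.22) and siRNA 3 (-0.19), against 0.16 with siRNA 2. For that probe the difference of siRNA 2 from siRNA 1 was 0.38 (adjusted p = 0.0411) and that of siRNA 3 from siRNA 2 was -0.35 (adjusted p = 0.0242), called in 0 and 4 of 9 fits with 1 array left out. POLR2M, an inhibitory protein that binds the polymerase, was dim and not called, with 0.31, 0.29 and 0.15 with siRNA 1, 0.25, -0.66 and 0.35 with siRNA 2, and -0.56, -0.56 and -0.43 with siRNA 3. Its values with siRNA 3 lay below all those of siRNA 1.

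**Figure D2:**
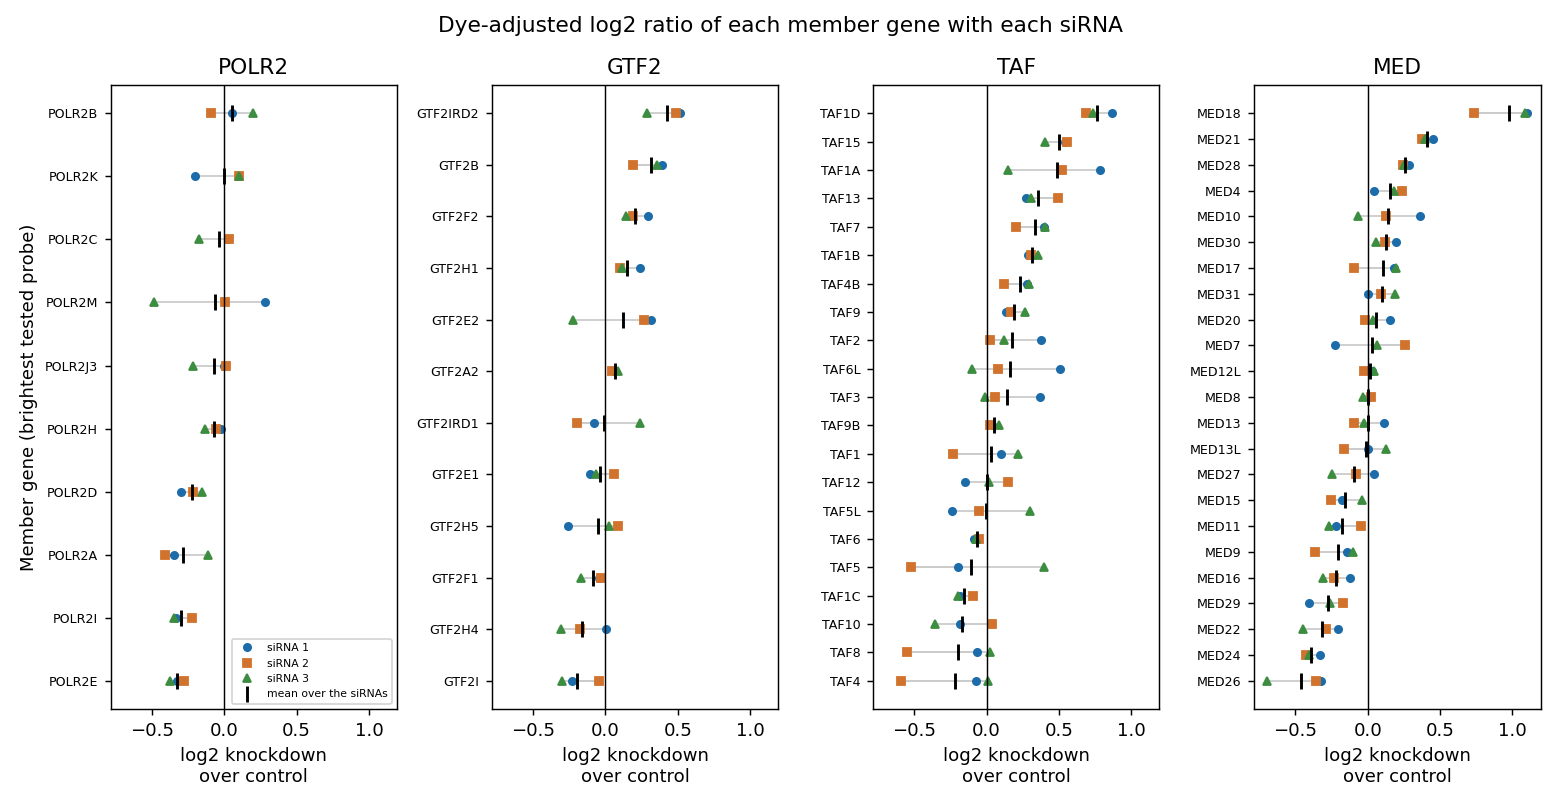
Each tested member gene is shown by its brightest probe in a panel for its family, with the log2 ratio of knockdown over control for each siRNA as a coloured symbol and the mean over the siRNAs as a bar. The means run from -0.32 to 0.05 in POLR2, from -0.19 to 0.43 in GTF2, from -0.22 to 0.76 in TAF and from -0.46 to 0.97 in MED.

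The GTF2 genes had 5 of 15 probes (33.3%) called higher and 2 (13.3%) lower with siRNA 1, 3 (20.0%) and 1 (6.67%) with siRNA 2, and 2 (13.3%) and 3 (20.0%) with siRNA 3. The shares of all tested probes were 11.6%, 10.5% and 9.9% higher and 11.3%, 9.74% and 10.1% lower, so several of these counts lay near them. With 1 array left out, 1 to 6, 0 to 2 and 1 to 3 GTF2 probes were called higher. Called lower were then 0 to 2, 0 and 0 to 4. With median centring the higher calls were 1, 0 and 0. The median over the 12 genes was 0.03, with 6 above and 6 below 0.

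GTF2B, which encodes TFIIB, the bridge between the TATA-binding protein and the polymerase, had 0.19, 0.18 and 0.63 with siRNA 1, 0.05, -0.04 and 0.38 with siRNA 2, and 0.20, 0.22 and 0.46 with siRNA 3. It was above 0 on 8 of 9 arrays, and the swapped array was the highest of each siRNA. GTF2B rose by 0.39, 0.19 and 0.36 (SE 0.0475 each, limma, adjusted p = 0.00202, 0.0336 and 0.00362). The mean was 0.13 in the Cy5 orientation and 0.49 on the swaps. Its call with siRNA 2 stayed only without array 3 of siRNA 3. With median centring or with Cy5 arrays alone GTF2B was called with no siRNA, and its estimates were as low as 0.18, 0.0036 and 0.21.

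GTF2E2, a subunit of TFIIE, which recruits TFIIH, had 0.29, 0.39 and 0.30 with siRNA 1, 0.24, 0.31 and 0.29 with siRNA 2, and 0.01, -0.31 and -0.34 with siRNA 3. The values of siRNA 3 all lay below those of the others. GTF2E2 rose with siRNA 1 (0.31, SE 0.0719, limma, adjusted p = 0.0219) and siRNA 2 (0.27, adjusted p = 0.0422), and siRNA 3 gave -0.23 (adjusted p = 0.0729). The difference of siRNA 3 was -0.54 from siRNA 1 (adjusted p = 0.0234) and -0.49 from siRNA 2 (adjusted p = 0.0281), called in 4 and 1 of 9 fits with 1 array left out. The rise with siRNA 1 was lost without any 1 array of siRNA 1, and that with siRNA 2 stayed in 1 of 9 such fits. Its partner GTF2E1 was dim and was not called (-0.11, 0.06 and -0.06).

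In TFIIF, which travels with the polymerase, GTF2F2 was above 0 on all 9 arrays, between 0.08 and 0.43, and was called with siRNA 1 (0.29), a call lost without array 2 or array 3 of siRNA 1. GTF2F1 was not called (-0.05, -0.03 and -0.17). In TFIIH, which unwinds the promoter, GTF2H4 was called lower with siRNA 2 (-0.17) and siRNA 3 (-0.31) on its brighter probe, and its difference between siRNA 3 and siRNA 1 was -0.31 (adjusted p = 0.0359). The call with siRNA 2 was lost whichever array was left out, that with siRNA 3 without array 3 of siRNA 3, and the difference stayed in 2 of 9 such fits. The second GTF2H4 probe had 0.02, -0.18 and -0.33. GTF2H5 was called lower with siRNA 1 (-0.26), not without array 1 or array 3 of that siRNA. Of 3 GTF2H1 probes, the middle one in brightness was called higher with siRNA 1 (0.26) and siRNA 3 (0.35), in 3 and 6 of 9 fits with 1 array left out, and the brightest was not called.

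GTF2A2, of TFIIA, was between 0.16 and 0.34 on the 6 Cy5-knockdown arrays and between -0.19 and -0.10 on the swaps, and no siRNA estimate was called. GTF2I, GTF2IRD1 and GTF2IRD2 belong to the TFII-I family, which binds regulatory elements. GTF2IRD2, a dim probe, had 0.51, 0.49 and 0.50 with siRNA 1, 0.66, 0.07 and 0.68 with siRNA 2, and 0.33, 0.24 and 0.24 with siRNA 3. All 9 values were above 0. GTF2IRD2 rose with siRNA 1 (0.51, SE 0.114, limma, adjusted p = 0.0195) and siRNA 2 (0.49, adjusted p = 0.0276), in 6 and 4 of 9 fits with 1 array left out, and siRNA 3 gave 0.29 (adjusted p = 0.137). GTF2I was called lower with siRNA 1 (-0.23) and siRNA 3 (-0.30), in 4 and 7 of 9 such fits. Both genes have near-identical copies, so what their probes read is uncertain. GTF2IRD1 was not called (-0.08, -0.20 and 0.24).

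Among the TAF genes, higher calls outnumbered lower ones. Of all tested probes, 11.6%, 10.5% and 9.9% were called higher with siRNA 1, 2 and 3, and 11.3%, 9.74% and 10.1% lower. With siRNA 1, 13 of 33 probes (39.4%) were called higher and 1 (3.03%) lower, with siRNA 2, 8 (24.2%) and 3 (9.09%), and with siRNA 3, 8 (24.2%) and 2 (6.06%). With 1 array left out, 3 to 12, 2 to 7 and 4 to 9 were called higher. With median centring 6 were called higher and 2 lower with siRNA 1, 2 and 2 with siRNA 2, and 1 and 1 with siRNA 3. The median over the 21 tested genes was 0.14, with 14 above 0, and it lay between 0.05 and 0.16 under all settings run. By role, and by brightest probe, the median was 0.40 over the 4 SL1 genes and 0.04 over the 14 TFIID genes. In each SL1 gene the brightest probe also had the highest mean. The lowest probe means were 0.18 for TAF1A, 0.16 for TAF1B, -0.20 for TAF1C and 0.12 for TAF1D, so the SL1 median depends on the probes taken.

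TAF1D, of SL1, had 0.77, 0.64 and 1.08 with siRNA 1, 0.58, 0.61 and 0.76 with siRNA 2, and 0.57, 0.73 and 0.79 with siRNA 3. All 9 values were above 0.5. TAF1D rose by 0.87, 0.69 and 0.73 (SE 0.0603 each, limma, adjusted p = 0.000378, 0.000851 and 0.00103), and its mean of 0.76 is a level 1.70-fold that of the control. Its second probe had a mean of 0.12 and was called with siRNA 3 (0.26), so the probes differed by 0.65, where the median spread over the 19 genes with several tested probes was 0.093.

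TAF1B, the SL1 subunit related to TFIIB, had 0.05, 0.24 and 0.41 with siRNA 1, 0.18, 0.12 and 0.48 with siRNA 2, and 0.16, 0.24 and 0.51 with siRNA 3. Each of the 9 arrays was above 0, with the swap the highest of each siRNA. TAF1B rose by 0.28, 0.31 and 0.35 (SE 0.0511 each, limma, adjusted p = 0.00898, 0.00802 and 0.0047), and each of these calls was lost without array 3 of its own siRNA. Its second probe had 0.13, 0.15 and 0.19 and was not called.

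TAF1A had 0.66, 1.00 and 0.80 with siRNA 1, 0.71, 0.68 and 0.29 with siRNA 2, and 0.41, 0.11 and 0.03 with siRNA 3 on its brightest probe. The values of siRNA 3 lay below all those of siRNA 1. TAF1A rose with siRNA 1 (0.78, SE 0.0949, limma, adjusted p = 0.00203) and siRNA 2 (0.52, adjusted p = 0.0112), and siRNA 3 gave 0.15 (adjusted p = 0.359). The difference of siRNA 3 from siRNA 1 was -0.64 (adjusted p = 0.0318) on this probe and -0.88 (adjusted p = 0.041) on a dim one, called in 3 and 2 of 9 fits with 1 array left out. The brightest probe lost its call with siRNA 2 without array 1 of siRNA 2. TAF1C, the fourth SL1 gene, had a mean of 0.16 in the Cy5 orientation and -0.48 on the swaps on its brighter probe, and no siRNA estimate of that probe was called. The other TAF1C probe was below 0 on all 9 arrays and fell with siRNA 1 (-0.34, adjusted p = 0.00423), a call kept whichever array was left out.

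TAF15, an RNA-binding protein, had 0.41, 0.42 and 0.65 with siRNA 1, 0.50, 0.42 and 0.62 with siRNA 2, and 0.47, -0.05 and 0.65 with siRNA 3. It was above 0 on 8 of 9 arrays. TAF15 rose by 0.54, 0.56 and 0.40 (SE 0.0994 each, limma, adjusted p = 0.00974, 0.0106 and 0.032). The call with siRNA 1 was lost without array 2 or array 3 of siRNA 1, that with siRNA 2 without array 1 of siRNA 2, and that with siRNA 3 stayed in 4 of 9 fits with 1 array left out. TAF6L and TAF5L stand for TAF6 and TAF5 in histone acetyltransferase complexes. TAF6L was called higher with siRNA 1 (0.51), not without any 1 array of siRNA 1, and TAF5L, a dim probe with a ratio on 7 arrays, was not called.

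Within TFIID, TAF7, which binds its largest subunit TAF1, had 0.62, 0.66 and 0.15 with siRNA 1, 0.53, 0.34 and -0.004 with siRNA 2, and 0.72, 0.61 and 0.13 with siRNA 3. It was above 0 on 8 of 9 arrays, and the swap was the lowest of each siRNA. TAF7 rose by 0.40, 0.21 and 0.41 (SE 0.0525 each, limma, adjusted p = 0.00283, 0.0356 and 0.00328). Its mean was 0.58 in the Cy5 orientation and 0.09 on the swaps, and the call with siRNA 2 stayed only without array 2 of siRNA 2. TAF9, a histone-fold subunit, had 0.15, 0.18 and 0.10 with siRNA 1, 0.18, 0.21 and 0.16 with siRNA 2, and 0.32, 0.29 and 0.22 with siRNA 3 on its brightest probe, all above 0. TAF9 rose by 0.14, 0.17 and 0.27 (SE 0.0384 each, limma, adjusted p = 0.0461, 0.0236 and 0.00465). Its call with siRNA 1 was lost whichever array was left out and its estimate turned to -0.04 with median centring, and that with siRNA 2 was lost without any 1 array of siRNA 2. Of the 3 TAF9 probes, 2 carry an accession of AK6 in the array files, a gene that overlaps TAF9, so what they read is uncertain. TAF9B, a close copy of TAF9, was not called (0.04, 0.02 and 0.09).

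TAF5, a WD-repeat subunit, had -0.33, -0.23 and -0.10 with siRNA 1, -0.86, -0.30 and -0.47 with siRNA 2, and 0.39, 0.30 and 0.44 with siRNA 3 on its brighter probe. All 3 values of siRNA 3 were above 0 and the 6 others below. Its estimates were -0.20, -0.52 and 0.40 (SE 0.1 each, limma, adjusted p = 0.216, 0.0137 and 0.0334). The difference of siRNA 3 from siRNA 2 was 0.92 (adjusted p = 0.013), called in 7 of 9 fits with 1 array left out, and not without array 1 or array 2 of siRNA 3. Its difference of siRNA 3 from siRNA 1 was 0.60 (adjusted p = 0.0451), called in 2 of 9. The second probe had 0.01, -0.30 and 0.005, and its difference of siRNA 3 from siRNA 2 was 0.31 (adjusted p = 0.047), also called in 2 of 9. The call with siRNA 3 on the brighter probe stayed in 2 of 9 such fits.

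Other TFIID genes were called with 1 siRNA. TAF2, which touches promoter DNA, rose with siRNA 1 (0.37, adjusted p = 0.0105), not without array 2 or array 3 of siRNA 1. TAF3, which binds a methylated lysine of histone H3, rose with siRNA 1 (0.37, adjusted p = 0.0084), not without array 3 of siRNA 1, and differed between siRNA 3 and siRNA 1 by -0.38 (adjusted p = 0.0497), a call lost whichever array was left out. TAF10, a histone-fold subunit, fell with siRNA 3 (-0.36, adjusted p = 0.0123), not without any 1 array of siRNA 3, and differed between siRNA 3 and siRNA 2 by -0.39 (adjusted p = 0.046, in 1 of 9 such fits). TAF1 was not called with any siRNA on its brighter, dim probe (0.10, -0.23 and 0.22). On that probe siRNA 3 differed from siRNA 2 by 0.45 (limma, adjusted p = 0.0435, in 1 of 9 such fits). The other TAF1 probe was called higher with siRNA 1 (0.36), in 5 of 9 such fits.

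TAF13, another histone-fold subunit, was between 0.73 and 0.94 on the swaps and between -0.54 and 0.09 with the knockdown in Cy5. Its dye term of -0.49 was the largest in size of any member, and it was called with siRNA 2 (0.49), in 4 of 9 fits with 1 array left out. TAF4, the scaffold of TFIID, had the lowest mean of the family by brightest probe, -0.22, on a dim probe that was not called. The second probes of TAF8 and TAF6 had lower means, -0.26 and -0.23. The TAF4 mean rests on array 2 of siRNA 2 at -1.71, while the other 8 arrays lay between -0.34 and 0.09. TAF8 was -1.09 on the same array and between -0.49 and 0.05 on the others, and was called lower with siRNA 2 (-0.55) on this dim probe, in 2 of 9 such fits. The second TAF8 probe, dimmer and with a ratio on 7 arrays, was called lower with siRNA 3 (-0.49), in 6 of 9 such fits, and that estimate turned above 0 under median centring and under the authors' own ratios, reaching 0.39. TAF12, TAF4B and TAF6 were not called on any probe.

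**Figure D3:**
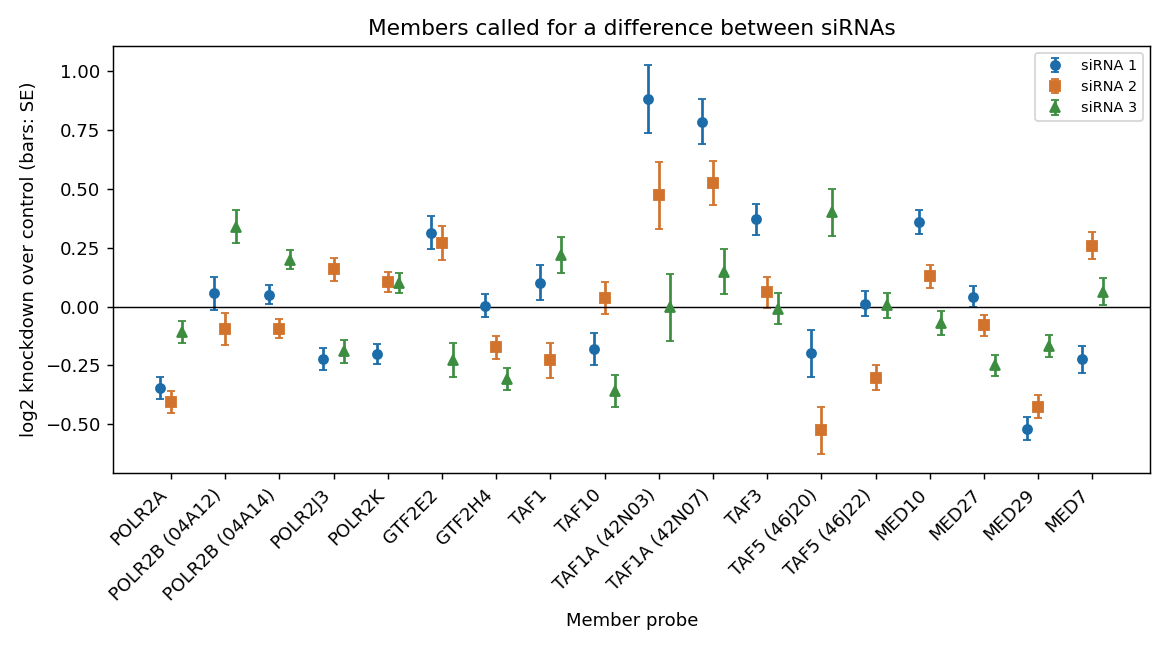
The log2 ratio of knockdown over control with its SE is shown for siRNA 1, 2 and 3, for each member probe called for a difference between siRNAs. A plate position in brackets tells probes of 1 gene apart. TAF5 stands at -0.52 with siRNA 2 and 0.40 with siRNA 3 on its brighter probe, and TAF1A at 0.78 with siRNA 1 and 0.15 with siRNA 3 on its brightest.

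Mediator held the highest and the lowest mean of all members, though TAF1D stood above MED18 with no background correction. Of all tested probes, 11.6%, 10.5% and 9.9% were called higher with siRNA 1, 2 and 3, and 11.3%, 9.74% and 10.1% lower. With siRNA 1, 5 of 28 MED probes (17.9%) were called higher and 5 (17.9%) lower, and with siRNA 2 and siRNA 3 alike 5 (17.9%) higher and 6 (21.4%) lower. With 1 array left out, 3 to 5, 1 to 5 and 1 to 5 were called higher and 1 to 6, 2 to 6 and 3 to 8 lower. With median centring 1, 1 and 1 were called higher and 6, 3 and 6 lower. Over the 23 tested genes 11 means lay above and 12 below 0.

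In the head, which touches the polymerase, MED18 had 0.91, 1.30 and 1.06 with siRNA 1, 0.84, 0.50 and 0.82 with siRNA 2, and 1.04, 1.04 and 1.15 with siRNA 3. Every one of the 9 values was at or above 0.50. MED18 rose by 1.10, 0.73 and 1.09 (SE 0.0939 each, limma, adjusted p = 0.000623, 0.00318 and 0.00117), and its mean of 0.97 (SE 0.0962, adjusted p = 0.0823 in the test across the siRNAs) is a level 1.97-fold that of the control. The probe was dim, at a mean log2 intensity of 8.29, and the estimates were as low as 0.52, 0.35 and 0.50 under other settings, still called. MED22 had -0.26, -0.20 and -0.19 with siRNA 1, -0.37, -0.26 and -0.27 with siRNA 2, and -0.53, -0.40 and -0.43 with siRNA 3, all below 0. MED22 fell with each siRNA, with estimates of -0.21, -0.29 and -0.45 (SE 0.0469 each, limma, adjusted p = 0.021, 0.00753 and 0.00179). The call with siRNA 1 was lost without any 1 array of siRNA 1, and that with siRNA 2 without array 3 of siRNA 2. MED11 was called lower with siRNA 3 (-0.26), in 2 of 9 fits with 1 array left out. MED8, MED17 and MED20, the last on a dim probe, were not called.

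In the middle module, MED21 had 0.40, 0.45 and 0.42 with siRNA 1, 0.33, 0.13 and 0.58 with siRNA 2, and 0.39, 0.21 and 0.50 with siRNA 3. Each of the 9 arrays was above 0. MED21 rose by 0.45, 0.38 and 0.39 (SE 0.0727 each, limma, adjusted p = 0.00572, 0.014 and 0.011). Its call with siRNA 2 was lost without array 1 or array 3 of siRNA 2, and that with siRNA 3 without array 1 or array 3 of siRNA 3. MED7, its direct partner, had -0.37, -0.55 and 0.03 with siRNA 1, 0.04, 0.04 and 0.49 with siRNA 2, and -0.04, -0.19 and 0.21 with siRNA 3. MED7 fell with siRNA 1 (-0.22, adjusted p = 0.0328) and rose with siRNA 2 (0.26, adjusted p = 0.0228), in 2 and 6 of 9 fits with 1 array left out, and this difference of 0.48 (SE 0.0797, adjusted p = 0.0369) was no longer called whichever array was left out. MED10 had 0.43, 0.24 and 0.38 with siRNA 1, 0.13, 0.06 and 0.18 with siRNA 2, and -0.08, -0.07 and -0.08 with siRNA 3. The siRNAs did not overlap on it. MED10 rose with siRNA 1 (0.36, adjusted p = 0.00348), and its difference of siRNA 3 from siRNA 1 was -0.43 (adjusted p = 0.0164), called in 4 of 9 fits with 1 array left out. MED4 was called higher with siRNA 2 (0.23) and siRNA 3 (0.18), MED31 higher with siRNA 3 (0.19) and MED9 lower with siRNA 2 (-0.37), in 7, 3, 2 and 7 of 9 such fits.

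In the tail, which activators bind, the means of all 3 tested genes were below 0 by brightest probe. MED24 had -0.23, -0.28 and -0.45 with siRNA 1, -0.48, -0.35 and -0.42 with siRNA 2, and -0.47, -0.33 and -0.40 with siRNA 3. Every one of the 9 values was below 0. MED24 fell with each siRNA, with estimates of -0.33, -0.43 and -0.41 (SE 0.0566 each, limma, adjusted p = 0.0072, 0.00347 and 0.00415), which left 79.5%, 74.2% and 75.5% of the control level. The call with siRNA 1 was lost without array 3 of siRNA 1. A second, dim MED24 probe had no ratio in both dye orientations for siRNA 2 and was not tested. With siRNA 1 that probe had 0.61, 1.04 and 0.37. Its other ratios were -0.11 on array 3 of siRNA 2, and 0.24 and -0.16 on arrays 2 and 3 of siRNA 3. MED16 was below 0 on all 9 arrays on its brighter probe and was called lower with siRNA 2 (-0.23) and siRNA 3 (-0.31), not without array 1 or array 3 of siRNA 2 and not without array 1 of siRNA 3. The second MED16 probe, a dim one, had 0.09, -0.02 and -0.36 and was not called. MED15 was not called on either probe, with means of -0.16 on the brighter and 0.02 on the dim one.

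Between head and tail, MED28 had 0.36, 0.38 and 0.17 with siRNA 1, 0.25, 0.38 and 0.15 with siRNA 2, and 0.33, 0.19 and 0.30 with siRNA 3. Each of the 9 arrays was above 0. MED28 rose by 0.29, 0.24 and 0.25 (SE 0.0584 each, limma, adjusted p = 0.0143, 0.0302 and 0.0245), in 6, 3 and 7 of 9 fits with 1 array left out. MED29 was below 0 on all 9 arrays on both probes. Its brighter probe was called lower with siRNA 1 (-0.40), not without array 1 or array 3 of siRNA 1. The other was called lower with siRNA 1 (-0.52) and siRNA 2 (-0.43) whichever array was left out, and siRNA 3 differed there from siRNA 1 by 0.35 (adjusted p = 0.0259), in 2 of 9 such fits. MED27 was called lower with siRNA 3 (-0.25) on its brightest probe, not without any 1 array of siRNA 3. On that probe siRNA 3 differed from siRNA 1 by -0.29 (limma, adjusted p = 0.035, in 2 of 9 such fits). The other MED27 probes had -0.10 and -0.12 with siRNA 3, and neither that estimate nor the difference was called on them. MED30 was called higher with siRNA 1 (0.19), not without any 1 array of siRNA 1.

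MED26, through which Mediator recruits elongation factors, had the lowest mean of all members, -0.46, on a dim probe with -0.39, -0.41 and -0.35 with siRNA 1, -0.77, -0.39 and -0.09 with siRNA 2, and -0.92, -0.94 and -0.40 with siRNA 3. Every one of the 9 values was below 0. MED26 fell with siRNA 2 (-0.36, SE 0.0977, limma, adjusted p = 0.0447) and siRNA 3 (-0.69, adjusted p = 0.0043), and siRNA 1 gave -0.32 (adjusted p = 0.0558). Its call with siRNA 3 was kept whichever array was left out, and that with siRNA 2 stayed in 1 of 9 fits. With no background correction the mean was -0.12 and the estimate with siRNA 3 was -0.19, still called. MED24 had the lowest mean there, and also with median centring, the authors' ratios and normexp. MED12L, MED13 and MED13L of the kinase module were not called, and the probes of MED13 and MED13L were dim.

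Differences between siRNAs were called for 2 of 89 member probes between siRNA 2 and siRNA 1, where 2.59% of all tested probes were, for 10 between siRNA 3 and siRNA 1, where 9.26% were, and for 9 between siRNA 3 and siRNA 2, where 10.2% were. As shares of the members these are 2.25%, 11.2% and 10.1%. Without array 1, 2 or 3 of siRNA 1 the counts for siRNA 3 minus siRNA 1 were 1, 1 and 0, without those of siRNA 2 they were 8, 11 and 4, and without those of siRNA 3 they were 1, 0 and 0. For siRNA 3 minus siRNA 2 they were 2, 4 and 5, then 1, 6 and 3, then 1, 0 and 2, and for siRNA 2 minus siRNA 1 they were 0 throughout.

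By dye orientation, 60 of 89 member probes (67.4%) had means of the same sign in the Cy5 orientation and on the swaps, where 51.1% of all tested probes did. The counts were 7 of 13 for POLR2, 10 of 15 for GTF2, 23 of 33 for TAF and 20 of 28 for MED. The dye term, which adds to the ratio with the knockdown in Cy5, was called above 0 for 12 members, where 14.5% of all were, and below 0 for 14, where 14.7% were. MED12L had 0.34 in the Cy5 orientation and -0.30 on the swaps, with a dye term of 0.32. POLR2E, POLR2I, POLR2J3 and POLR2K had dye terms called above 0, of 0.13, 0.18, 0.21 and 0.14, and POLR2B had 1 called below 0, of -0.17.

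**Figure D4:**
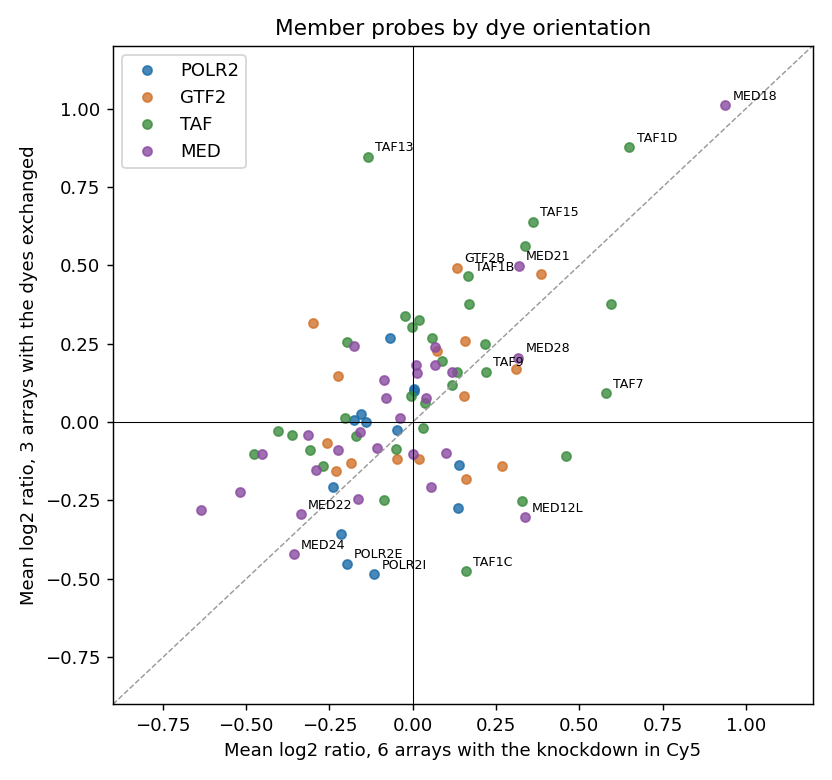
Means of the log2 ratio of knockdown over control are plotted, those of the 6 Cy5-knockdown arrays on the horizontal axis and those of the 3 dye-swapped arrays on the vertical axis, with a point for each tested member probe, coloured by family. MED18 (0.94 and 1.01) and TAF1D (0.65 and 0.88) lie near the line of equal values, and TAF13 (-0.13 and 0.85) and MED12L (0.34 and -0.30) far from it.

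Beside the members, 48 of 59 other genes of initiation and elongation by RNA polymerase II were tested. With siRNA 1, 2 and 3, 8, 8 and 9 of them (16.7%, 16.7% and 18.8%) were called higher, where 11.6%, 10.5% and 9.9% of all tested probes were. Called lower were 11, 10 and 7 (22.9%, 20.8% and 14.6%), where 11.3%, 9.74% and 10.1% of all were, and the median of their means over the siRNAs was -0.01. With 1 array left out, 1 to 8, 1 to 7 and 6 to 9 were called higher and 2 to 10, 7 to 11 and 1 to 7 lower, and with median centring 4, 4 and 6 higher and 14, 5 and 9 lower. With each siRNA 3 (6.25%, where 3.23% of all were) were called higher: CCNT2, a cyclin of the elongation kinase P-TEFb (0.28, 0.35 and 0.63), LARP7, part of the particle that holds P-TEFb inactive (0.41, 0.44 and 0.75), and RPAP3, an assembly factor of the polymerase (0.48, 0.46 and 0.63). With each siRNA 4 (8.33%, where 2.58% of all were) were called lower: CDK12, a kinase of the polymerase tail (-0.57, -0.83 and -0.29), CTDSP1, a phosphatase of that tail (-0.19, -0.26 and -0.21), ELL, an elongation factor (-0.36, -0.51 and -0.44), and INTS1, of the Integrator complex (-0.41, -0.40 and -0.27). Of these, 1 to 3 and 1 to 4 stayed so called with 1 array left out, and with median centring RPAP3, CDK12 and ELL did. The ELL probe was dim.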

How the data were processed

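The deposited scanner tables hold, for each spot, intensity values of the knockdown and the control channel above local background with a floor of 1, the authors' calibrated ratio and a spot quality fraction, per the file headers. The columns of the dye-swapped arrays were already exchanged, per the labels' design text, so every ratio is knockdown over control. The deposited series table holds log2 values of the authors' ratio, with the sign turned on the swaps (equal within 0.001). 0 columns belonged to no sample.

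From these, log2 ratios were normalised by loess within each array, with the 960 blank spots of 36288 at weight 0. Probes above 2 background standard deviations in a channel on at least 6 arrays were kept (30691 of 35328), and the 28259 for which each siRNA gave ratios in both orientations were tested with limma 3.58.1 in R 4.3.3. A mean per siRNA, a dye term and differences between siRNAs were fitted over all 9 arrays, and 3 dye-balanced siRNA values were tested against 0. The procedure was tested on simulated data. The number of arrays limits the precision.

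Members, lists and tests were chosen with earlier results of these data known. The naming rule took, per family, the 3 highest and 3 lowest means by brightest probe, members called with each siRNA or for a difference between siRNAs (up to 5 of each kind), POLR2A, and the 3 largest dye terms, which gave 39 genes. Other members, and the genes beside them called with each siRNA, were named after their values were seen, to account for every complex. Alternatives were median centring, the authors' ratios, other background and signal filters, spot quality, Cy5 arrays alone, and each array left out. 20 probes with several symbols and 8 named a member only by an array-file accession were left out. Promoter windows came from RefSeq.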

Additional observations from a re-analysis of the deposited data

Results flagged for a closer look

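Each of these results is a difference between siRNAs in the log2 ratio of knockdown over control that passed the limma test of the difference itself. Whether the siRNAs share control RNA was not settled. Each of these calls was lost in some of the fits with 1 array left out. The call kept most often, TAF5 between siRNA 3 and siRNA 2 on its brighter probe, stayed in 7 of 9.

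Between siRNA 2 and siRNA 1, MED7 differed by 0.48 and the dimmer POLR2J3 probe by 0.38. Between siRNA 3 and siRNA 1, TAF5 differed by 0.60, MED29 by 0.35 on its dimmer probe and POLR2K by 0.30. In the other direction stood TAF1A, at -0.64 on its brightest probe and -0.88 on a dim one, GTF2E2 at -0.54 and MED10 at -0.43. So did TAF3 at -0.38, GTF2H4 at -0.31 on its brighter probe and MED27 at -0.29 on its brightest. Between siRNA 3 and siRNA 2, TAF5 differed by 0.92 on its brighter probe and 0.31 on the other, TAF1 by 0.45, POLR2B by 0.29 on its brighter probe and 0.43 on the other, and POLR2A by 0.30. GTF2E2 differed there by -0.49, TAF10 by -0.39 and the dimmer POLR2J3 probe by -0.35.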

How the results depend on the processing

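With median centring, members called higher were 8, 3 and 2 with siRNA 1, 2 and 3, lower 6 with siRNA 2, 2 higher and 2 lower with each siRNA, and 0, 0 and 0 for siRNA 2 minus 1, 3 minus 1 and 3 minus 2. TAF9 with siRNA 1 turned to -0.043, and the second TAF8 probe with siRNA 3 turned above 0, as it did with the authors' ratios. With the authors' ratios the higher counts were 13, 5 and 6, and 2 with each siRNA, and the differences 0, 0 and 1. Normexp gave 5 across the siRNAs and 4 for siRNA 2 minus 1. No background correction gave 10, 26 and 19 differences, 24 lower with siRNA 3 and 6 lower with each. Signal in both channels on all arrays gave 12 across, 6 lower with each, and 5 and 18 for siRNA 2 minus 1 and 3 minus 1. Without low-quality spots there were 25 lower with siRNA 3, 7 lower with each, 11 across, and 7, 21 and 16 differences. With Cy5 arrays alone 9 and 6 were higher and lower with siRNA 1, 9 higher with siRNA 2, 8 and 9 higher and lower with siRNA 3, 4 and 1 with each, and the differences 0, 0 and 0. With no filter on signal nothing changed, because every probe with a dye-balanced ratio was detected, and current symbols gave the same 95 probes. Shares of all tested probes were not counted under these settings, and the causes of the changes were not tested.

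With 1 array left out, higher calls were 7 to 23, 4 to 12 and 6 to 19 with siRNA 1, 2 and 3, and lower 3 to 16, 5 to 11 and 4 to 19. With each siRNA they were 3 to 7 higher and 0 to 3 lower, across 0 to 0, and for the differences 0 to 0, 0 to 11 and 0 to 6. Single values were followed for results named by the naming rule and for TRMT12. Of 774 under a left-out array, 556 kept their side of the threshold, 218 lost the call and 0 changed sign. The 556 include means over the siRNAs that were not called to begin with and had no call to lose. Of 682 under the other alternatives, 539 kept it, 120 lost it, 22 gained it and 1, TAF9 with siRNA 1, changed sign. The second TAF8 probe was not among these values. No paired analysis was possible because each ratio already pairs knockdown and control on 1 array. Dim probes, 23 of the 89, limit what can be read from TAF and MED genes most.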
